A study of Mus musculus with 16 samples.

Results

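Secretagogue receptors are the receptors through which nerves, hormones, nucleotides and inflammatory signals tell the colonic epithelium to release mucus or fluid. The 10 receptors described here were taken as a named list: the muscarinic acetylcholine receptors Chrm1 and Chrm3, the oxytocin receptor Oxtr, the purinergic receptors P2ry1 and P2ry2, the protease-activated receptor F2rl1, the VIP receptor Vipr1, the prostaglandin E2 receptor Ptger4, the adenosine receptor Adora2b and the galanin receptor Galr1. They are 10 of the 45513 genes counted in each library, and they were named as a list of genes rather than by a rule on measured values, although earlier results of these data were known when the list was made. RNA was sequenced from EpCAM+ epithelial cells of the colon of 8 Atoh1(WT)CreERT2 mice that carry the R26R tdTom reporter, and each mouse gave a tdTom+ and a tdTom- library, so each group held 8. In these mice a Cre recombinase activated by tamoxifen is knocked in downstream of the Atoh1 coding sequence, and all mice received tamoxifen, for which the labels and the methods for the secretory signature give 1 mg per day on 3 days. The methods describe the animals as adult males and females on a C57BL/6 background. The tdTom+ cells were sorted for a reporter that stays on once Atoh1, the transcription factor that sets the secretory fate, has been active. The tdTom- cells hold the remaining epithelium, absorptive cells among them, together with unlabelled enteroendocrine and tuft cells and any secretory cells the label missed. As bulk libraries they cannot tell fewer cells of a type from less RNA per cell.

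As background, 6 of the receptors (Chrm1, Chrm3, Oxtr, P2ry1, P2ry2 and F2rl1) signal mainly through Gq, which activates phospholipase C and releases calcium from stores. In goblet cells a calcium rise is the classical trigger for compound exocytosis of mucin granules, and in absorptive and crypt cells it opens potassium and chloride channels. Another 3 (Vipr1, Ptger4 and Adora2b) signal through Gs and raise cAMP, which opens the chloride channel CFTR and drives fluid secretion. Galr1 couples to Gi and lowers cAMP.

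The sort was checked on Atoh1, at 132 ± 19.3 counts per 1e6 (CPM, mean ± SD, n = 8) in tdTom+ cells and 5.70 ± 1.67 CPM in tdTom- cells. All 7 goblet markers and all 4 deep crypt secretory markers were higher in tdTom+ cells and all 8 absorptive markers were lower. Of the enteroendocrine markers 9 of 10 were lower in tdTom+ cells, and of the tuft cell markers 6 of the 8 tested. With the mouse as a block 10 enteroendocrine and 7 tuft cell markers were lower, beside 28.9% of all genes. Stem cell markers were split, with 2 higher and 4 lower. The marker counts without the block are to be read beside 25.5% of all genes tested higher and 25.5% lower, at the threshold given below. Libraries held 16482530 to 24218367 counts in tdTom+ cells and 18318172 to 45791503 in tdTom- cells, and the largest was the tdTom- library of mouse 4, which was also the lowest of its group for P2ry2, F2rl1, Ptger4 and Galr1. By their numbers the mice form 3 series, namely mice 1 to 3, mouse 4, and mice 5 to 8, so values within the first and last series are given beside the pooled ones, and mouse 4 alone gives no test.

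Of the 10 receptors, 9 passed edgeR's filter on low counts and were tested with its quasi-likelihood test at a Benjamini-Hochberg adjusted p under 0.01 over 15841 genes. Chrm1, Chrm3 and Oxtr were higher in tdTom+ cells, 3 receptors against a background of 25.5% of all genes tested that were higher. P2ry1, P2ry2, Vipr1 and Adora2b were lower, 4 receptors against 25.5% of all genes that were lower. Differences were common in this comparison, with 51.0% of all genes past the threshold in either direction, and 57.2% (28.4% higher and 28.9% lower) when the mouse was a block. F2rl1 and Ptger4 did not pass the threshold in this fit, which has no mouse term, and the filter removed Galr1. With the mouse as a block, which uses the pairing, Ptger4 passed as higher (edgeR adjusted p = 0.0019). That fit gave 4 receptors higher and 4 lower. Oxtr and Adora2b passed the filter only through the population where they were higher. With them included, the groups did not overlap for 6 of the 9 receptors tested, against 30.5% of all genes. With a background this wide the counts say little of the receptors, and the sizes of the differences carry the description. The median log2 fold change of the 9 receptors was 0.08, beside 0.0039 over all genes tested.

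**Figure D1:**
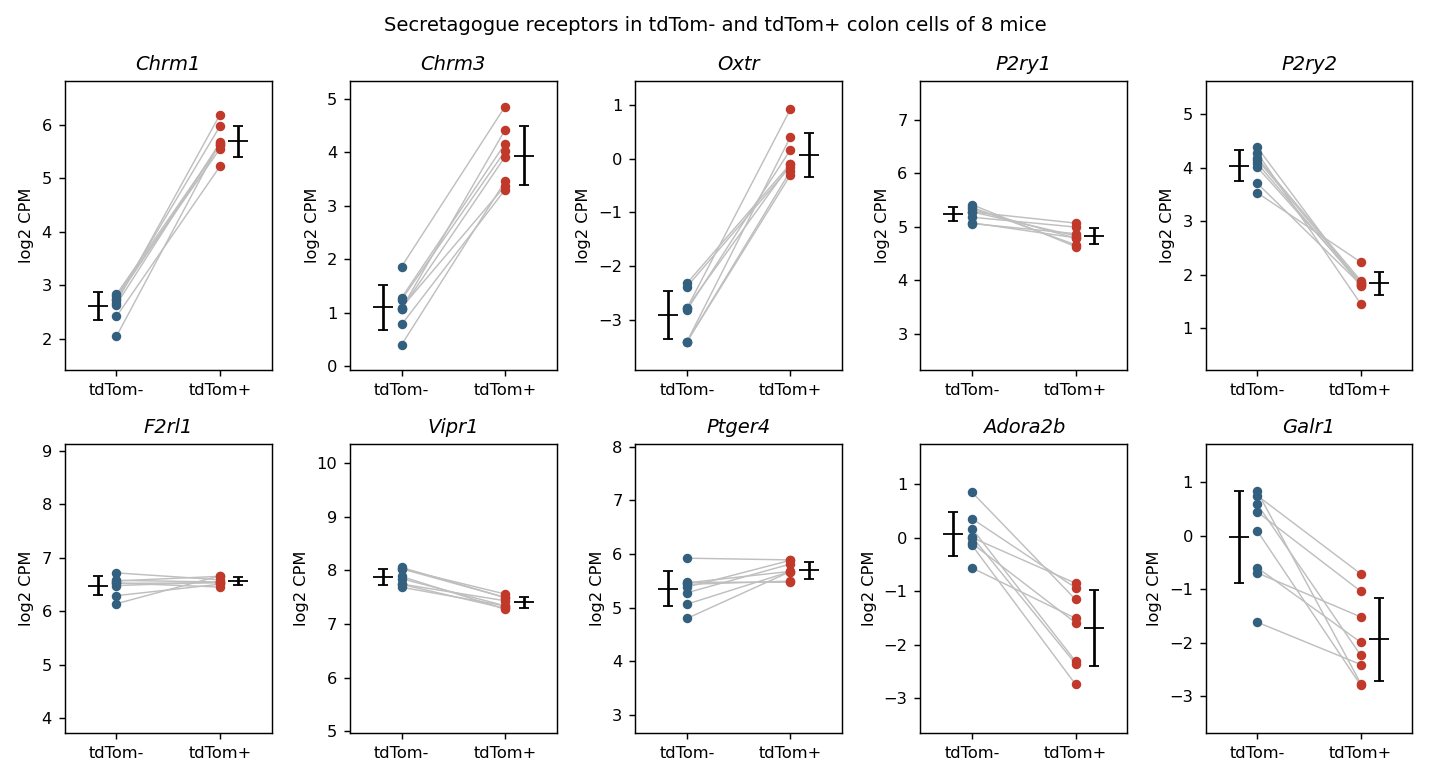
Level of each receptor in the 8 tdTom- (blue) and 8 tdTom+ (red) libraries, in log2 CPM with a prior count of 2; grey lines join the libraries of a mouse and black bars give the mean ± SD. Each panel spans the same number of log2 units. Chrm1, Chrm3 and Oxtr rose in 8 of 8 mice, P2ry1, P2ry2, Vipr1 and Adora2b fell in 8 of 8, Galr1, which was not tested, was lower in 8 of 8, and the groups overlapped for P2ry1, F2rl1, Ptger4 and Galr1.

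The muscarinic receptors were the members with the clearest excess in tdTom+ cells. Chrm1 (ENSMUSG00000032773, GRCm38 chr19:8663789-8683587, plus strand) encodes the M1 receptor for acetylcholine, the transmitter of the enteric secretomotor nerves. Its lowest, median and highest levels were 37.1, 49.8 and 72.5 CPM in tdTom+ libraries and 4.03, 6.42 and 7.0 CPM in tdTom- libraries. No tdTom- library came near a tdTom+ library. Chrm1 differed by 3.10 ± 0.13 (log2 fold change ± SE, edgeR adjusted p = 2.68e-14), and by 3.18 within mice 1 to 3 and 3.00 within mice 5 to 8. By the size of the change Chrm1 stood at rank 191 from the top of the 15841 genes.

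Chrm3 (ENSMUSG00000046159, chr13:9875486-10360844, minus strand) encodes the M3 receptor, another Gq-coupled muscarinic receptor and the main one in many glands. It ranged from 9.76 to 28.8 CPM in tdTom+ libraries (median 15.6) and from 1.23 to 3.55 CPM in tdTom- libraries (median 2.04). The groups were again apart, with mouse 7 the highest in both. Its log2 fold change was 2.92 ± 0.23, with an edgeR adjusted p of 7.07e-10 and values of 2.78 within mice 1 to 3 and 2.88 within mice 5 to 8. Per kilobase of exon, Chrm1 was above Chrm3 in both populations, by a median ratio of 2.57 in tdTom+ and 2.13 in tdTom- cells. The ranges of this ratio overlapped (1.18 to 3.59 against 1.37 to 2.62).

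The tdTom- level was 11.6% of the tdTom+ level for Chrm1 and 13.2% for Chrm3, while it was 4.31% for Atoh1 and 4.09% for Muc2, the main secreted mucin of goblet cells. Goblet markers summed to 49049 to 102910 CPM in tdTom+ libraries and 2224 to 8657 CPM in tdTom- libraries, and the part of unlabelled goblet cells in the tdTom- receptor levels was not tested. Smooth muscle and enteric neurons also carry muscarinic receptors. The 5 smooth muscle markers summed to 3.62 to 5.13 CPM in tdTom+ and 5.02 to 6.31 CPM in tdTom- libraries. The enteric neuron and glia markers summed to 5.31 to 9.24 CPM in tdTom+ and 5.03 to 13.9 CPM in tdTom- libraries. Among them Uchl1 was lower in tdTom+ cells (-3.10 ± 0.36), and Ret (-0.33) did not pass. The part of smooth muscle, neurons and glia in the receptor levels was not tested.

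Oxtr (ENSMUSG00000049112, chr6:112473684-112489808, minus strand), the receptor for the peptide hormone oxytocin, had the highest fold change of the members and a very low level. Its lowest, median and highest levels were 0.715, 0.839 and 1.80 CPM in tdTom+ libraries, which is 13 to 32 counts a library. In tdTom- libraries it ranged from 0 to 0.106 CPM (median 0.049), with 10 counts over all 8 libraries and none in 3 of them. The groups did not overlap, and mouse 1 gave the highest tdTom+ value. Oxtr passed the low-count filter through its tdTom+ libraries alone. The log2 fold change was 4.12 ± 0.38, with an edgeR adjusted p of 6.42e-09 and a 95% interval of 3.34 to 4.91. It was 4.27 within mice 1 to 3 and 4.95 within mice 5 to 8. By fold change Oxtr stood at rank 83 from the top.

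The purinergic receptors went the other way. P2ry2 (ENSMUSG00000032860, chr7:100996572-101011991, minus strand) encodes the receptor for extracellular ATP and UTP. Its lowest, median and highest levels were 2.66, 3.48 and 4.63 CPM in tdTom+ libraries and 11.5, 17.3 and 20.8 CPM in tdTom- libraries. The groups did not overlap, although the tdTom- library of mouse 4 and the tdTom+ library of the same mouse were the closest to each other. On the log2 scale the fold change was -2.23 ± 0.13, with an edgeR adjusted p of 3.27e-12, and it was -2.37 within mice 1 to 3 and -2.36 within mice 5 to 8. P2ry2 stood at rank 450 from the bottom of all genes tested.

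P2ry1 (ENSMUSG00000027765, chr3:61002795-61008982, plus strand), which answers ADP, changed far less. It ranged from 24.7 to 33.4 CPM in tdTom+ libraries (median 28.0) and from 33.2 to 42.5 CPM in tdTom- libraries (median 38.7). The ranges overlapped slightly, the tdTom+ library of mouse 4 lying just above the lowest tdTom- library. Its log2 fold change was -0.41 ± 0.07, with an edgeR adjusted p of 3.28e-05, and the level was lower in tdTom+ cells in 8 of 8 mice. Within mice 1 to 3 the value was -0.50 and within mice 5 to 8 it was -0.41. An antisense gene, Gm37035, overlaps P2ry1 on the other strand and had 33 counts in all.

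F2rl1 (ENSMUSG00000021678, chr13:95511732-95525240, minus strand) encodes PAR2, which is activated when trypsin-like proteases cut it. It was among the best counted receptors, at 87.4 to 101 CPM in tdTom+ libraries (median 93.3) and 70.4 to 105 CPM in tdTom- libraries (median 91.9). The tdTom- range enclosed the tdTom+ range, and 5 of 8 mice were higher in tdTom+ cells. F2rl1 had a log2 fold change of 0.08 ± 0.07, with an edgeR adjusted p of 0.332 and a 95% interval of -0.06 to 0.22, so a change beyond that interval was not found at this depth. The values were -0.0026 within mice 1 to 3 and 0.04 within mice 5 to 8.

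Of the Gs-coupled receptors, Vipr1 (ENSMUSG00000032528, chr9:121642716-121672954, plus strand) encodes the VPAC1 receptor for VIP, the peptide of secretomotor neurons. Its lowest, median and highest levels were 155, 167 and 189 CPM in tdTom+ libraries and 206, 233 and 266 CPM in tdTom- libraries. Every tdTom+ library lay below every tdTom- library, though by a small margin. Vipr1 had a log2 fold change of -0.48 ± 0.07, with an edgeR adjusted p of 3.04e-06, and of -0.47 within mice 1 to 3 and -0.48 within mice 5 to 8.

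Ptger4 (ENSMUSG00000039942, chr15:5206661-5244187, minus strand) encodes EP4, a receptor for prostaglandin E2. It ranged from 44.3 to 59.2 CPM in tdTom+ libraries (median 50.9) and from 27.7 to 60.5 CPM in tdTom- libraries (median 42.3). The groups overlapped through mouse 2, which had the highest level in both populations, and 7 of 8 mice were higher in tdTom+ cells. Ptger4 had a log2 fold change of 0.33 ± 0.12 (edgeR adjusted p = 0.0187), which did not pass. With the mouse as a block it was 0.35, with an edgeR adjusted p of 0.0019, and passed. Without mouse 2 it was 0.40 (adjusted p = 0.0017, edgeR) and without mouse 4 0.28 (adjusted p = 0.0324, edgeR), and within mice 1 to 3 and mice 5 to 8 it was 0.16 and 0.35. Exons of Ttc33 overlap Ptger4 on the other strand, with 6694 counts in all, and the authors' counting used the strand.

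Adora2b (ENSMUSG00000018500, chr11:62248984-62266453, plus strand) encodes the A2B receptor, the low-affinity receptor for adenosine. Its lowest, median and highest levels were 0.0563, 0.249 and 0.461 CPM in tdTom+ libraries, or 1 to 9 counts. In tdTom- libraries they were 0.582, 0.913 and 1.71 CPM, or 11 to 61 counts. The groups did not overlap, and 3 of the tdTom+ libraries were under 3 counts, which is 0.154 to 0.164 CPM at their depth. Adora2b passed the low-count filter through its tdTom- libraries alone. The log2 fold change was -1.94 ± 0.31, with an edgeR adjusted p of 1.54e-05. It was -2.51 within mice 1 to 3 and -1.88 within mice 5 to 8.

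Galr1 (ENSMUSG00000024553, on chromosome 18), the Gi-coupled galanin receptor, ranged from 0.0511 to 0.518 CPM in tdTom+ libraries (1 to 8 counts) and from 0.233 to 1.68 CPM in tdTom- libraries (11 to 31 counts). The level was lower in tdTom+ cells in 8 of 8 mice, but the groups overlapped through the tdTom- library of mouse 4. The filter removed it in the fit over all mice. With no filter its log2 fold change was -2.29 ± 0.45, with an edgeR adjusted p of 0.000163. Without mouse 4 Galr1 passed the filter, through its tdTom- libraries alone, and was lower (-2.36, edgeR adjusted p = 5.7e-05). It did so too within mice 1 to 3 (-2.25, edgeR adjusted p = 0.0032) and within mice 5 to 8 (-2.49, edgeR adjusted p = 0.00076). Immune cells can carry Ptger4, Adora2b and other members. The 8 immune markers summed to 1.54 to 3.56 CPM in tdTom+ and 4.14 to 11 CPM in tdTom- libraries, and Ptprc, the pan-leukocyte marker CD45, fell by 1.52 on the log2 scale. Enteroendocrine markers summed to 327 to 837 against 1453 to 4219 CPM and tuft markers to 57.1 to 119 against 110 to 179 CPM, with absorptive markers at 586 to 876 against 6352 to 12207 CPM. The part of each of these cell types in the lower receptors was not tested.

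**Figure D2:**
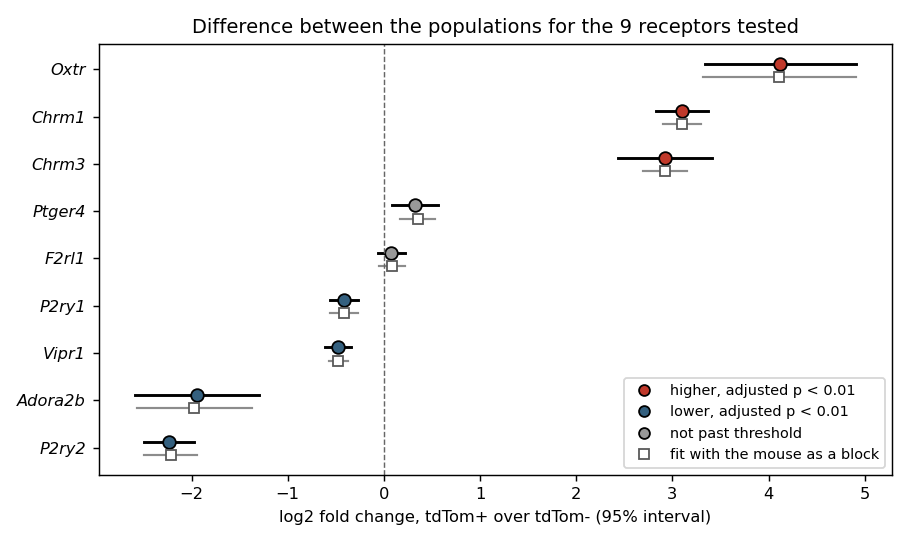
Log2 fold change of tdTom+ over tdTom- cells for the 9 receptors tested, with 95% intervals; filled circles come from the model without a mouse term and open squares from the model that has each mouse as a block. Oxtr, Chrm1 and Chrm3 lie to the right between 2.92 and 4.12, P2ry2 and Adora2b to the left near -2, and the remaining 4 within 0.5 of 0.

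A ranking of the receptors per kilobase of exon (RPKM) shows which would be most abundant in each population. In tdTom+ cells F2rl1 was highest at 34.2 ± 1.69 RPKM (SD, n = 8), followed by Vipr1 at 30.5 ± 2.26, and then Chrm1 at 8.05 ± 1.65, Ptger4 at 7.82 ± 0.86 and P2ry1 at 6.63 ± 0.70. Chrm3 followed at 3.60 ± 1.44 and P2ry2 at 1.17 ± 0.18 RPKM, and Oxtr (0.220), Adora2b (0.136) and Galr1 (0.0717) were under 1 RPKM. The order of Chrm1 and Ptger4 was not resolved (exact sign-flip permutation p = 0.695, adjusted 0.695, two-sided). Nor was that of Oxtr and Adora2b (exact permutation p = 0.0547, adjusted 0.0757), although Oxtr was above in 7 of 8 mice. The order of Adora2b and Galr1 was not resolved either (exact permutation p = 0.133, adjusted 0.171).

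In tdTom- cells the order opened with Vipr1 at 42.5 ± 4.35 RPKM and F2rl1 at 32.5 ± 3.89, then P2ry1 at 8.85 ± 0.79, Ptger4 at 6.26 ± 1.44 and P2ry2 at 5.55 ± 1.04. Chrm1 stood at 0.938, Adora2b at 0.541, Chrm3 at 0.475, Galr1 at 0.359 and Oxtr at 0.0097 RPKM. The order of Ptger4 and P2ry2 was not resolved (exact permutation p = 0.18, adjusted 0.202), although Ptger4 was above in 7 of 8 mice. Nor was that of Adora2b and Chrm3 (exact permutation p = 0.586, adjusted 0.620) or of Chrm3 and Galr1 (exact permutation p = 0.156, adjusted 0.1875). Neighbours were chosen by ranking the same values, which these p-values do not allow for. All other neighbours in the 18 comparisons had an adjusted exact permutation p of at most 0.0234, where 8 mice allow no exact p below 0.0078. By mean RPKM Chrm1 stood at rank 3 in tdTom+ cells, not resolved from Ptger4, and at rank 6 in tdTom- cells. P2ry2 stood at rank 7 in tdTom+ cells and at rank 5 in tdTom- cells, the latter not resolved from Ptger4.

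Summed over the members, receptor RNA was 92.5 ± 5.59 RPKM in tdTom+ cells and 98.0 ± 7.26 RPKM in tdTom- cells. The Gq-coupled members made up 58.3% ± 1.13 of this sum in tdTom+ cells and 49.3% ± 3.20 in tdTom- cells. The Gs-coupled members made up 41.6% ± 1.14 and 50.3% ± 3.25. Galr1, the Gi-coupled member, was at 0.080% and 0.361%. F2rl1 and Vipr1 together made most of both sums, at 37.1% and 33.0% in tdTom+ cells and 33.1% and 43.4% in tdTom- cells.

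The counts in the gene lists that follow are to be read beside the 25.5% of all genes tested that were higher and the 25.5% that were lower, and no list was tested as a set. Relatives of the members were taken from a list of 25 other subtypes of the same families, of which 7 passed the filter. P2ry4, the UTP receptor closest in function to P2ry2, was higher in tdTom+ cells, at 7.09 ± 2.34 against 0.722 ± 0.479 CPM (log2 fold change 3.34 ± 0.32, edgeR adjusted p = 1.15e-08). Vipr2, the VPAC2 receptor for VIP, was higher too, at 16.1 ± 2.15 against 3.50 ± 1.00 CPM (2.22 ± 0.15, edgeR adjusted p = 3.86e-11). Adora1, a Gi-coupled adenosine receptor, was lower at 1.47 ± 0.45 against 3.74 ± 1.31 CPM (-1.35 ± 0.21), and P2ry6, the UDP receptor, fell by 0.32 on the log2 scale. Avpr1b (-0.43), Adora2a (-0.14) and Ptger3 (0.18) did not pass. Of the muscarinic subtypes left, Chrm2 and Chrm5 were at 0 in every library and Chrm4 had 0.264 and 0.154 CPM.

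The pairs P2ry2 with P2ry4 and Vipr1 with Vipr2 were looked at after these values were seen, so they are given with no test. The ratio of P2ry4 to P2ry2 per kilobase was 0.451 to 2.20 in tdTom+ libraries (median 1.49) and 0.0153 to 0.0559 in tdTom- libraries (median 0.0238). The 2 UTP receptors were thus at like levels in tdTom+ cells, while P2ry2 was far above P2ry4 in tdTom- cells. The ratio of Vipr2 to Vipr1 was 0.0958 to 0.139 in tdTom+ and 0.0103 to 0.0262 in tdTom- libraries, so Vipr1 remained the more abundant VIP receptor in every library.

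**Figure D3:**
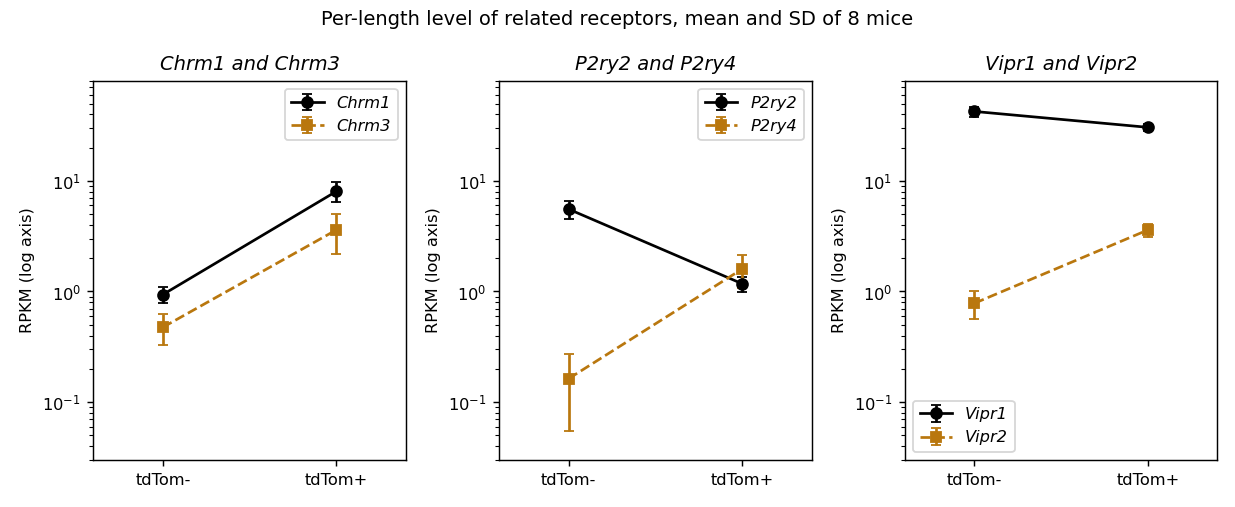
Mean RPKM with SD over 8 mice, on a log axis, of Chrm1 and Chrm3 (left), P2ry2 and P2ry4 (middle) and Vipr1 and Vipr2 (right) in tdTom- and tdTom+ cells. Chrm1 and Chrm3 rise side by side, the P2ry2 and P2ry4 lines cross, and Vipr1 stays above Vipr2.

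Downstream of the Gq-coupled receptors, 9 of the 18 tested genes of the calcium pathway were higher in tdTom+ cells and 5 were lower, with a median log2 fold change of 0.18, where 25.5% of all genes passed in each direction. Plcb1, a phospholipase C, rose by 3.25 ± 0.13, from 1.81 ± 0.39 to 16.9 ± 2.60 CPM. Itpr1, an IP3 receptor that releases stored calcium, rose by 2.23 ± 0.10 to 129 ± 14 CPM. The Gq-class alpha subunit Gna11 fell by 1.23 on the log2 scale and the protein kinase C gene Prkcd fell by 0.88. Genes for the same step did not all move together, since the IP3 receptor gene Itpr3 fell by 0.41 on the log2 scale.

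Of the 24 tested genes from Gs to cAMP, 6 were higher and 8 lower, with a median of -0.06, close to the 25.5% of all genes each way. With the mouse as a block 7 were higher and 9 lower, beside 28.4% and 28.9% of all genes. Rapgef3, the cAMP-activated exchange factor EPAC1, rose by 4.53 ± 0.18, from 3.71 ± 1.59 to 83.8 ± 5.41 CPM, while its relative Rapgef4 (EPAC2) fell by 1.74. Of the 4 regulatory subunits of protein kinase A, Prkar2b rose by 1.52 ± 0.09 and Prkar1b fell by 2.19 on the log2 scale. Prkar1a (0.04) and Prkar2a (0.19) did not pass, although Prkar2a did with the mouse as a block (edgeR adjusted p = 0.0011). Among the 5 Gi and Go alpha subunits, Gnai1 rose by 1.28 ± 0.11 and Gnaz and Gnai2 changed by -0.83 and -0.42.

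Of the 15 tested genes that turn receptors off (receptor kinases, arrestins and RGS proteins), 9 were higher and 3 lower, with a median of 0.41, beside 25.5% of all genes in each direction. Rgs2, which speeds the inactivation of Gq, rose by 3.03 ± 0.16 from 5.22 ± 1.2 to 42.2 ± 11.2 CPM, and Rgs14 rose by 2.58 ± 0.16. Rgs4 (-1.32) and the arrestin Arrb1 (-0.64) were lower in tdTom+ cells.

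The epithelium also makes, takes up or breaks down several of the ligands. For acetylcholine, all 3 genes tested were lower in tdTom+ cells, as were 25.5% of all genes: the synthetic enzyme Chat at 0.603 ± 0.183 against 1.45 ± 0.66 CPM (-1.24), and the esterases Ache (-0.80) and Bche (-1.44). For prostaglandin E2, 2 of 7 were higher and 5 lower, beside 25.5% of all genes each way. The synthase Ptges rose by 1.76 ± 0.19 and the exporter Abcc4 by 0.41 ± 0.08. The other synthesis genes tested were lower, with Ptgs1 at -0.999 ± 0.17, Ptges2 at -0.63 ± 0.07 and Ptges3 at -0.25 ± 0.06, and the uptake carrier Slco2a1 and the degrading enzyme Hpgd changed by -2.90 and -1.26.

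For nucleotides and adenosine, 6 of 15 were higher and 7 lower, and 6 and 9 with the mouse as a block, where the shares of all genes were 25.5% each way and, with the block, 28.4% and 28.9%. Nt5e (CD73), which makes extracellular adenosine, was at 5.58 ± 1.32 in tdTom+ and 61.9 ± 15.9 CPM in tdTom- cells, a log2 fold change of -3.48 ± 0.17, and Entpd5 followed at -1.94. Enpp3, an ectoenzyme that cleaves nucleotides, rose by 2.72 ± 0.27, and Entpd4 rose by 1.70 ± 0.14, but Entpd4 has a near-identical copy in the mouse, Entpd4b, and the counts of the pair are uncertain. Where in the cell Entpd4 and Entpd5 act was not tested, so their changes do not show turnover of nucleotides outside it. Of the peptide ligands, Oxt, Vip, Adcyap1, Gal and Galp were at most 0.0649 CPM and were not tested. Of the membrane serine proteases listed for PAR2, Prss8 (0.96) and Tmprss2 (0.46) were higher and St14 (-0.59) lower.

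Of the 10 tested channels and transporters that carry out fluid and bicarbonate secretion, 2 were higher and 4 lower, not far from the 25.5% of all genes each way. With the mouse as a block 2 were higher and 5 lower, beside 28.4% and 28.9% of all genes. Best2, a chloride and bicarbonate channel of goblet cells, rose by 4.47 ± 0.25 from 8.08 ± 4.19 to 176 ± 28.4 CPM, and Slc12a2, which loads chloride into the cell, rose by 0.75 ± 0.10. Slc26a3, the anion exchanger of absorptive cells, was at -4.45 ± 0.23, and the bicarbonate cotransporter Slc4a4 was at -1.31 ± 0.09. Cftr, the channel opened by cAMP, was at 116 in tdTom+ and 244 CPM in tdTom- cells (-1.07 ± 0.08), and the potassium channel gene Kcnq1 at -1.21 ± 0.12. Ano1, a calcium-activated chloride channel, did not pass (0.25 ± 0.17, edgeR adjusted p = 0.203).

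**Figure D4:**
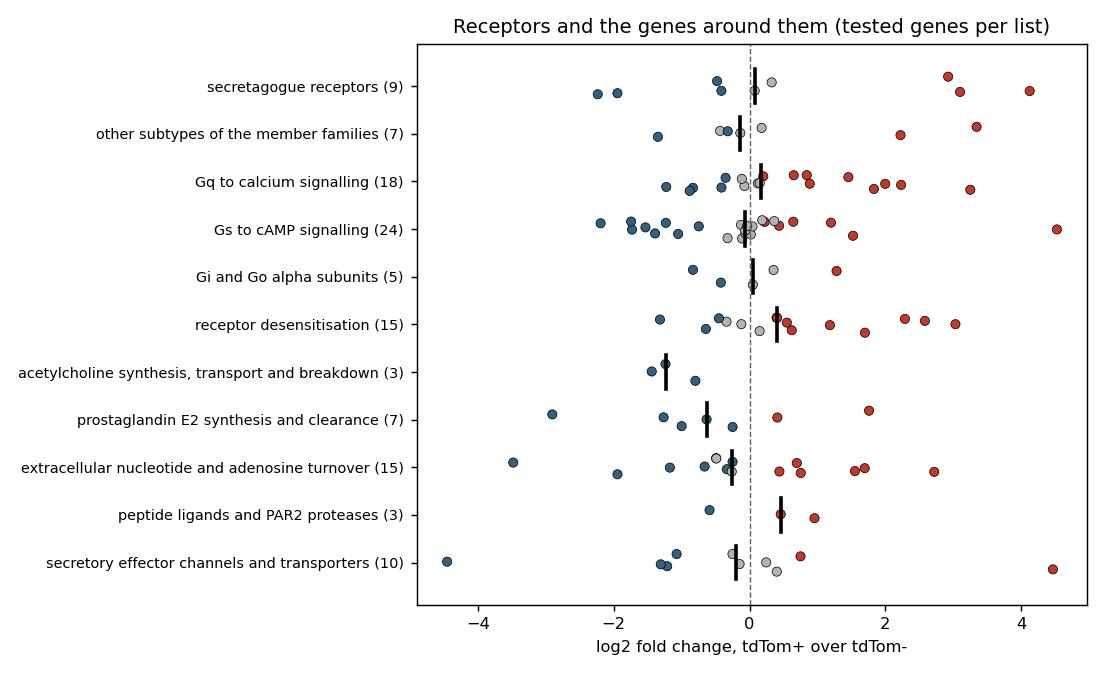
Log2 fold change of each tested gene in the receptor list and the lists around it (number tested in brackets); red genes are higher and blue genes lower in tdTom+ cells at an adjusted p under 0.01, grey genes did not pass, and black bars mark the list medians. Most lists hold genes on both sides of 0, and the 3 acetylcholine genes all lie to the left.

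For each receptor the genes with the most similar log2 CPM over the 16 libraries were sought. The libraries fall into 2 populations, so a high Pearson r mostly marks genes that differ between them in the same direction. Chrm1 was most like 5330417C22Rik (r = 0.997), Sidt1 (0.996) and Galnt10 (0.995), and 1647 genes had r above 0.9 with it. Chrm3 was most like E330009J07Rik (0.988), Eef1akmt3 (0.984) and Myadm (0.983), Oxtr like P4ha2 (0.982), Pemt (0.980) and Sypl (0.979), and P2ry2 like Itpk1 (0.992), Gm6560 (0.991) and Sgpl1 (0.991). The nearest genes were Lpcat3, Map3k11 and Git1 for P2ry1 (0.946, 0.936 and 0.934), Gpc4, Hr and Vwa8 for Vipr1 (0.957, 0.953 and 0.952), and Gm10327, Met and Syne1 for Adora2b (0.931, 0.927 and 0.925). For F2rl1 and Ptger4, which did not pass the test without a mouse term, the likeness was lower. No gene reached 0.9 with F2rl1, whose nearest was Nhlrc2 (0.863), followed by Gm20634 and Daam1 (0.846 and 0.841), and only Zfand2a (0.903) did so with Ptger4, followed by Gm8832 and Plaur (0.869 and 0.867).

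ATOH1 belongs to the basic helix-loop-helix factors, which bind the letters CANNTG (E-boxes), so the 250 bases before the start of each receptor gene were searched for them on both strands. RefSeq windows on GRCm38.p6 were found for 7 of the 10 receptors and for 32851 starts in all. CANNTG was in 66.2% of all windows, CAGCTG in 13%, and CAGATG or its reverse complement CATCTG in 14.4%, the last 2 being forms of the first. P2ry2 and Adora2b, the 2 tested members with the lowest fold changes, are shown because their windows held such letters and lie clear of annotated exons. Capitals mark CANNTG.
P2ry2, chr7:101012054-101012303, minus strand: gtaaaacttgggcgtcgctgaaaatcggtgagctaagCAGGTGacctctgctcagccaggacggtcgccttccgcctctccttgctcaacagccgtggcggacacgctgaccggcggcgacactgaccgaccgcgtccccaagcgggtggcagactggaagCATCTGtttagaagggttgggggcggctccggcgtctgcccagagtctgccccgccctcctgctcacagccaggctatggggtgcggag
Adora2b, chr11:62248734-62248983, plus strand: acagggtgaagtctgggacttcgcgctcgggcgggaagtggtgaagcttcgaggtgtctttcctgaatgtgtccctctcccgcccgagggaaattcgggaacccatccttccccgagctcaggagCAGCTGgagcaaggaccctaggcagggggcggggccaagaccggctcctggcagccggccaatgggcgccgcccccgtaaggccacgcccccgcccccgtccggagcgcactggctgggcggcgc
The P2ry2 window held CAGGTG and CATCTG and the Adora2b window CAGCTG. The Oxtr window held 2 CANNTG and that of Chrm3 held 0, and P2ry1, Vipr1 and Ptger4 also held 0. With CANNTG in most windows of all genes, these matches describe the sequence only.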

How the data were processed

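The 16 colon libraries were paired stranded mRNA libraries of 8 mice, read as single-end 50-base reads. The authors aligned the reads to GRCm38 with TopHat2 (2.1.1 in the submitters' processing notes) and deposited raw counts per gene from exons on the reverse strand, primary alignments only, as featureCounts gives them. The file headers name featureCounts 1.5.0-p1 and the notes Subread 1.5.2 and DESeq2 1.14.1. Symbols of 44585 genes came from GENCODE M21.

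From the deposited counts, edgeR 4.0.16 in R 4.3.3 was run over all genes: filterByExpr, TMM, glmQLFit and glmQLFTest, no mouse term, Benjamini-Hochberg adjusted p under 0.01. The SE came from the log2 fold change and F. CPM used TMM-scaled totals, log2 CPM a prior count of 2, and RPKM the exon length of the files. Depth ran from 16482530 to 45791503 counts. A floor is 3 counts, and floors cover counting error only. Exact sign-flip tests over mice were two-sided. The fits were also run on simulated counts, in which few genes changed and all had the same spread, so that run does not gauge the calls given here. Alternatives were the mouse as a block, RLE, upper-quartile and library-total scaling, no low-count filter, at least 10 counts required of each library, DESeq2 1.42.0, limma 3.58.1 (voom), mice 1 to 3 or 5 to 8 only, each mouse left out, and an adjusted p of 0.05.

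The 2 libraries of a mouse come from the same animal, as the mouse number in the labels gives. Deviations from the group means correlated at 0.22 or more within every mouse (mean 0.30) and at most at 0.17 between mice. The receptors and gene lists were chosen with earlier results of these data known. Genes named were all 10 receptors, the 2 highest and 2 lowest of each list past the threshold with at least 100 counts, the 3 genes most alike to each tested receptor, markers, Atoh1 and overlapping genes. Itpr3, Prkar1a, Prkar2a, Ptgs1, Ptges2, Ptges3, Cftr, Ache, Kcnq1, Ano1, Chrm2, Chrm4, Chrm5, Entpd4b, the untested peptide ligands and the subtypes that did not pass were added after their values were seen. So were Plcb2, Plcb3 and Plcb4. Other tissues and genotypes are not analysed here. Summaries and figures used scipy 1.17.1, pandas 2.3.3, numpy 2.4.6 and matplotlib 3.10.9 in Python 3.11.15.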

Additional observations from a re-analysis of the deposited data

How the results depend on the processing

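Of 473 recomputed values, 460 gave the same sign and the same call, or moved little where there was no test. This includes the setting at an adjusted p of 0.05, which reuses the main fit, so its fold changes and medians could not move. A count within a set factor of the main count was taken as the same, even where the call of a receptor changed. With the mouse as a replicate block 4494 genes were higher and 4574 lower in tdTom+ cells, against 4032 and 4042 without it. The block changed the call of 1 receptor, Ptger4 (0.35, edgeR adjusted p = 0.0019), and of no other. With mice 1 to 3 only, 2546 genes were higher and 2559 lower, a fit with fewer samples, and F2rl1 was at -0.0026 (edgeR adjusted p = 0.989), below 0 where the value from all mice was above it. Ptger4 also passed with mice 5 to 8 only (0.35), without mouse 2 (0.40) and at an adjusted p of 0.05, and its adjusted p ran from 0.0017 to 0.472 over its alternatives. The cause was not tested. The 7 receptors past the threshold kept direction and call in every fit that gave a value: Chrm1 from 3.00 to 3.18, Chrm3 from 2.78 to 3.00, Oxtr from 3.93 to 4.95, P2ry1 from -0.50 to -0.36, P2ry2 from -2.37 to -2.14, Vipr1 from -0.53 to -0.46 and Adora2b from -2.51 to -1.82. The median of the receptor desensitisation list ran from 0.28 with no filter to 0.54 with a minimum of 10 counts, and that of the peptide ligands and proteases was 0.97 with no filter. With that minimum Oxtr, Adora2b and Galr1 gave no value. Few counts limit Oxtr in tdTom- cells and Adora2b and Galr1 in tdTom+ cells.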

Other observations

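Mast cell markers, which summed to 6.49 to 16.5 CPM in tdTom+ and 0.292 to 2.13 CPM in tdTom- libraries, came mostly from Cma1 (11.4 ± 3.07 against 0.401 ± 0.280 CPM), while Cpa3 and Fcer1a were at 0 in all tdTom+ libraries and Mcpt2 was too. Fibroblast markers summed to at most 0.525 and 0.812 CPM, with Lum at 0 in every library, and endothelial markers to 0.752 to 1.17 and 1.87 to 3.32 CPM.

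Whether a mouse with a high level of a receptor in tdTom+ cells also had a high level in tdTom- cells was examined over the 8 mice for the 10 receptors, 10 relations in all, on log2 CPM. Chrm3 had the highest Pearson r, 0.80 (permutation p = 0.0159, adjusted 0.159), with a Spearman rho of 0.69 (permutation p = 0.0694, adjusted 0.347), and r was 0.62 without the 2 mice farthest from the median. None of the 10 passed after adjustment. The largest series of mouse numbers holds 4 mice, and no correlation is given over fewer than 6.

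Of 20 sets of 8 values checked for an extreme library (each receptor in each population), 0 passed Dixon's limit, where chance would give about 1.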
